A study of Rattus norvegicus with 4 samples.

Results

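The microRNAs rno-miR-205 (MIMAT0000878) and rno-miR-203 (MIMAT0000876), both known from stratified epithelium, were followed across rat prostate miRNA arrays. They were chosen by name as the probes called miR-205 and miR-203 without a star, which gave 2 of the 679 miRNA probes on the array. The tissue came from male TRAP rats, a transgenic line in which the probasin promoter drives a viral T antigen in prostate epithelium, so that every group carried this transgene. Rats were 6 weeks old at the start, ate a control diet and were injected into a vein 2 times a week over 8 weeks. The injections held saline or OBP-801, an inhibitor of histone deacetylases, at 1 mg/kg per the treatment protocol (the agent label reads 1 mg, with no body weight). RNA of the ventral and of the lateral prostate gave 1 array for each pairing of lobe and agent, 4 arrays and 4 groups in all. How many rats stand behind an array is not in the labels. With 1 array per group no comparison of 2 arrays has a replicate check, and each is given as a value without a p-value.

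MicroRNAs are short RNAs that pair through their seed, bases 2 to 8, with messenger RNAs and lower their output. In the prostate miR-205 is known as a miRNA of the basal layer that is often lost in prostate cancer, and it represses ZEB1 and ZEB2, the drivers of the epithelial to mesenchymal transition. In skin miR-203 is known to repress p63, the factor that maintains basal cells, as cells leave the basal layer. The pair therefore marks related epithelia but stands at different points of their differentiation.

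The mature sequences are those that carry the names of the probes. They were matched by name and synonym, without the probes' own sequences, and are taken from RefSeq on the GRCr8 build, with the seed in capitals. By these names the array's miR-203 is the arm now called miR-203a-3p, and its miR-203* is miR-203a-5p.
miR-205: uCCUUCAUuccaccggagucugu
miR-203 (miR-203a-3p): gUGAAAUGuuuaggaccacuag
miR-203* (miR-203a-5p): aGUGGUUCuuaacaguucaac
The seeds of miR-205 and miR-203 are unlike each other, and the 2 sequences share no run longer than 4 bases. Neither seed was found in any of the 723 other mature rat miRNAs of the RefSeq table. The longest run that miR-205 shares with another mature miRNA is 8 bases, with miR-135b-5p and 1 other, and miR-203 shares a run of 8 bases with miR-421-5p. The GC content is 52.2% for miR-205 and 40.9% for miR-203.

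The genes lie apart. Mir205 is at chr13:107564535-107564642 on the minus strand (GRCr8), an intergenic position in the RefSeq annotation, 26563 bases from the nearest annotated gene, a long noncoding RNA. Mir203 is at chr6:137020705-137020801 on the plus strand, between the protein-coding genes Aspg and Kif26a. The hairpins show the arm that each probe reads, in capitals.
Mir205 hairpin: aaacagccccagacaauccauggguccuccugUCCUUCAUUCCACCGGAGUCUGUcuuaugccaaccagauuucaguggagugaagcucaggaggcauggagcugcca
Mir203 hairpin: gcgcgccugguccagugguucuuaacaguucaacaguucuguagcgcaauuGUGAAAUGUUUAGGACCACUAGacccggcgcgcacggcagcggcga
In these hairpins miR-205 lies in the 5′ arm, at bases 33 to 55 of 108, and miR-203 in the 3′ arm, at bases 52 to 73 of 97. In the predicted minimum free energy fold (RNAfold), 19 of the 23 bases of miR-205 and 19 of the 22 bases of miR-203 are paired.

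Mir203 is overlapped on the other strand by a second miRNA gene, Mir3545, also called Mir203b, and both of its arms have probes on the array. The arm called miR-3545-5p is the reverse complement of the first 20 bases of miR-203, which are shown in capitals in the second line.
miR-3545-5p: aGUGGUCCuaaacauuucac
miR-203: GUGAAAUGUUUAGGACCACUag
If the probes follow these names, the probe for one of these arms has nearly the sequence of the other arm, and the 2 probes read opposite strands of the same locus.

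Both members were detected on all 4 arrays, as were 242 of the 679 probes, while 300 probes were detected on none. A probe counted as detected when its spot signal, its median intensity as scanned, was above the mean plus 2 SD of the blank spots. That limit was 124 (saline) and 116 (OBP-801) on the ventral arrays and 125 and 129 on the lateral arrays. The number of probes detected was 299, 290, 290 and 329 in that order. Every miRNA has 1 spot, so no spread between spots of the same miRNA was available. A set of 12 dim control probes with 8 spots each gives a measure of it near the background, where the SD over spots was 0.065 to 0.29 on the log2 scale with a median of 0.15. The 2 spike controls, which give bright spots, had an SD of 0.036 to 0.20.

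In ventral prostate the signal of miR-205 was 685 under saline and 952 under OBP-801, and in lateral prostate it was 587 under saline and 1037 under OBP-801. These signals were 4.71 to 8.18 times the detection limit of their array, and both OBP-801 arrays lay above both saline arrays. In ventral prostate the signal of miR-203 was 209 under saline and 188 under OBP-801, and in lateral prostate it was 245 and 235. These were 1.62 to 1.97 times the limit, so that miR-203 was measured close to the background, and as scanned its saline and OBP-801 arrays overlapped. Levels of the 2 probes are not set against each other, since probes differ in how brightly they report the same amount of RNA.

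**Figure D1:**
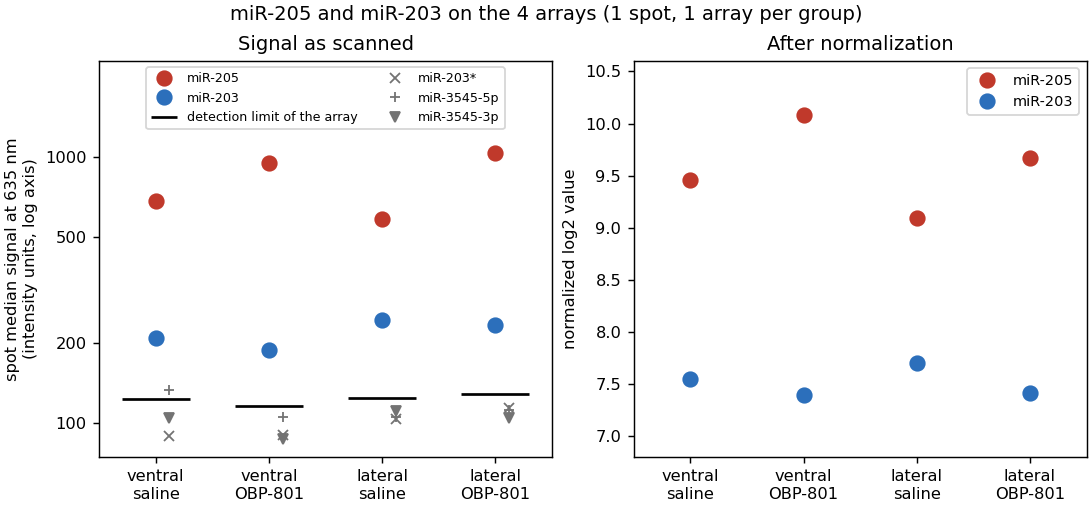
Spot signal as scanned (left, intensity units on a log axis, with each array's detection limit as a black bar) and normalized log2 value (right) of miR-205 and miR-203 on the 4 arrays, 1 spot and 1 array per group. miR-205 sits between 587 and 1037 with both OBP-801 arrays above both saline arrays, miR-203 sits between 188 and 245, and the points of miR-203* and the miR-3545 arms lie below the limit except miR-3545-5p in ventral saline.

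The other products of the miR-203 locus stayed at the background. The minor arm miR-203* had signals of 90.0 and 90.4 on the saline and OBP-801 arrays of ventral prostate and 104 and 114 on those of lateral prostate, below the limit on every array. The antisense miR-3545-5p had 133, 106, 106 and 112 in the same order, above the limit in ventral saline and below it on the other 3 arrays. Its partner miR-3545-3p had 105, 87.0, 112 and 105 and was detected on none. A probe for the minor arm of miR-205 was not analysed here.

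After normalization (normexp background correction, quantile scaling, log2) miR-205 had values of 9.46 under saline and 10.08 under OBP-801 in ventral prostate, and 9.09 and 9.67 in lateral prostate. The highest value was that of ventral OBP-801 and the lowest that of lateral saline, a range of 0.99 against a median range of 0.36 over the 242 miRNAs detected on all arrays, of which 13 had a larger one. The normalized values of miR-203 were 7.55, 7.39, 7.70 and 7.41 in the same order, a range of 0.30, and 145 of the 242 had a larger range. On this scale the OBP-801 arrays of miR-203 lay below its saline arrays.

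In the ventral prostate miR-205 was higher after OBP-801 than after saline by 0.62 on the log2 scale, or 1.54-fold. Of the 260 miRNAs detected on both arrays 4 had a larger difference. The spread of all 260 differences, taken as the median absolute deviation put on the scale of an SD, was 0.26 around a median of -0.02, and this spread holds biological and technical differences together. A difference of at least 1.5-fold upward was seen for 2.69% of these miRNAs and one of at least 2-fold for 0.769%, and 47.3% were above 0. miR-205 passed 1.5-fold and not 2-fold. In the same comparison miR-203 had a difference of -0.15, or 1.11-fold lower, which is inside the spread of all miRNAs, with 81 of 260 below it. At least 1.5-fold downward was seen for 3.85% of miRNAs, miR-203 not among them, and at least 2-fold downward for 0%.

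In the lateral prostate miR-205 was higher after OBP-801 by 0.58, or 1.49-fold, which is just short of 1.5-fold. Of 271 miRNAs detected on both arrays 6 had a larger difference, and the spread of all differences was 0.23 around a median of 0.00. At least 1.5-fold upward was seen for 2.21% of miRNAs and downward for 2.58%, at least 2-fold for 0.369% each way, and neither member passed any of these. For miR-203 the lateral difference was -0.28, or 1.22-fold lower, a little beyond the spread, with 33 of 271 miRNAs below it. The lateral difference of miR-205 was smaller than its ventral one by 0.045 and that of miR-203 lay lower than its ventral one by 0.13, against a spread of 0.25 for this quantity over 242 miRNAs. Whether the lobes responded differently could not be tested with 1 array per group.

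**Figure D2:**
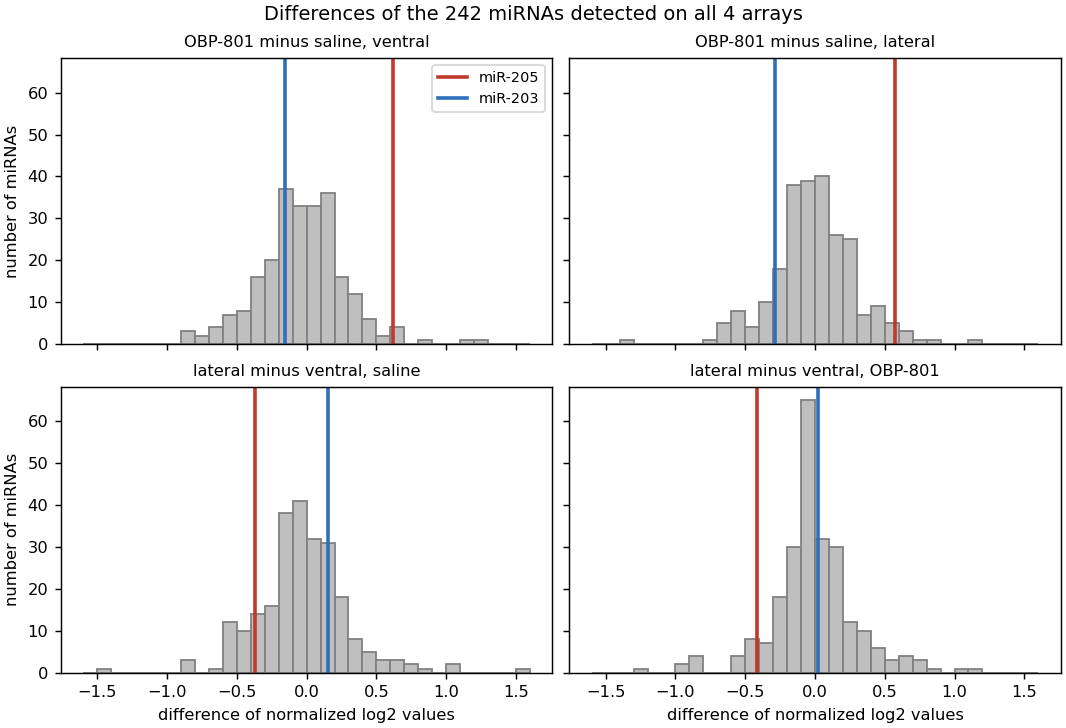
Histograms of the log2 differences of the 242 miRNAs detected on all 4 arrays in the 4 comparisons of single arrays (x axis, difference of normalized log2 values; y axis, number of miRNAs), with miR-205 in red and miR-203 in blue. miR-205 lies in the upper tail of both OBP-801 comparisons, at 0.62 and 0.58, and in the lower part of both lobe comparisons, at -0.37 and -0.41, while miR-203 lies between -0.28 and 0.15.

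A cell number in the scanner files moved with the agent. Both saline arrays carried the cell number 1 and both OBP-801 arrays the cell number 2, whose meaning the headers do not give, so cell and agent cannot be told apart. The spot of miR-205 lies in print block 16 of 16. The 140 blank spots of that block averaged 96.0 in ventral saline and 102 in ventral OBP-801, and 93.0 and 112 on the lateral arrays. These blank levels were thus higher after OBP-801 by 5.79 and 19.5 intensity units, while miR-205 was higher by 268 and 451 units. Over the blank spots of the whole array the mean was 102 and 100 on the saline and OBP-801 arrays of ventral prostate. On those of lateral prostate it was 104 and 109, so block 16 moved unlike the array as a whole. The part of the block in the values of miR-205 was not tested. The other 12 miRNAs of the block detected on all arrays had median log2 differences of 0.00 in ventral and 0.16 in lateral prostate. With the median of each print block removed, the differences of miR-205 were 0.51 and 0.36, and in the lateral prostate 23 of 242 miRNAs then had a larger one. The spot of miR-203 lies in block 10, where 14 other miRNAs had medians of -0.11 and -0.07, and with block medians removed its differences were -0.20 and -0.26.

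In a fit with lobe and agent as terms across all 242 miRNAs (limma, 1 residual degree of freedom), miR-205 was higher after OBP-801 by 0.60 (SE 0.088), with an unadjusted p of 0.0038 and an adjusted p of 0.153 (Benjamini-Hochberg). It was higher in 2 of 2 lobes but did not pass an adjusted p of 0.05, and 0% of miRNAs did. In this fit the 2 lobes stand in for replicates of the agent. Its SE and p therefore do not give a measure of the spread between rats. An unadjusted p under 0.05 was reached by 40 of the 242, or 16.5%, and miR-205 had the fourth smallest. The adjusted p depended on the processing. With cyclic loess the difference of miR-205 was again 0.60, with a larger SE of 0.15, and its adjusted p was 0.00164 (limma). The prior degrees of freedom were infinite there, against 2.54 as reported. They were also infinite in the deposited value table, where the adjusted p was 0.737. Over all alternatives the adjusted p ran from 0.00164 to 0.737. For miR-203 the same fit gave -0.22 (SE 0.094) with an unadjusted p of 0.090 and an adjusted p of 0.310, and none of its alternatives passed. In an exact two-sided permutation test of the 4 arrays both members had p = 0.333, the smallest that 6 splits allow. Both OBP-801 arrays lay above both saline arrays for 21.5% of the 242 miRNAs, miR-205 among them, and below them for 23.6%, miR-203 among them.

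Between the lobes miR-205 was lower in lateral than in ventral prostate, by -0.37 under saline (1.29-fold) and by -0.41 under OBP-801 (1.33-fold). Below these differences lay 31 of 255 miRNAs under saline, where the spread was 0.25, and 16 of 271 under OBP-801, where it was 0.21. At least 1.5-fold downward was seen for 1.96% under saline and 2.58% under OBP-801, and at least 2-fold downward for 0.392% and 0.369%, miR-205 not among them. Under OBP-801 the scanned signals of miR-205 ran the other way, with 1037 in lateral and 952 in ventral prostate. The median signal of the miRNAs detected on all arrays was 261 on the lateral and 202 on the ventral OBP-801 array. The 2 spike controls averaged 37427 and 34036 on the lateral and 39583 and 32649 on the ventral OBP-801 array. The cause of the brighter lateral array was not tested. Without normalization between arrays the difference of miR-205 under OBP-801 was 0.11, still below the median of 0.31 over all miRNAs. With spike control scaling it was 0.13, where that median was 0.33. Relative to the median of all miRNAs miR-205 was lower in lateral prostate under all 9 alternatives, for both agents. No normalization, median centring and spike control scaling differ only by a constant per array. By construction they give the same relative value, -0.28 under saline and -0.20 under OBP-801.

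For miR-203 the difference between lateral and ventral prostate was 0.15 under saline and 0.02 under OBP-801, both inside the spread. It was above 0 in both, as were 44.7% and 42.8% of miRNAs. It was not among the 3.53% and 4.06% that were at least 1.5-fold higher in lateral prostate, nor among the 1.18% and 0.738% that were at least 2-fold higher. The OBP-801 value was -0.05 with median centring and -0.02 with print block medians removed, so it has no settled sign. The arrays of the lobes overlapped for both members, while both ventral arrays lay above both lateral ones for 18.6% of the 242 miRNAs and below them for 16.9%. In the additive fit the lobe difference was -0.39 (SE 0.088, adjusted p = 0.148) for miR-205 and 0.09 (SE 0.094, adjusted p = 0.627) for miR-203 (limma). No miRNA passed an adjusted p of 0.05 for the lobe in this fit, while 40 had an unadjusted p under 0.05. A p that misses the threshold does not show equal levels in the lobes.

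Markers of other cells differed between the lobes as well. Leukocyte markers, 5 detected on every array, had lobe medians of -0.53 under saline and -0.53 under OBP-801, the same side as miR-205, and both medians were below 0 under all 9 alternatives. Their summed signal above the blank level was 1281 and 1003 on the ventral and 716 and 672 on the lateral arrays, and miR-223, of neutrophils and other myeloid cells, had lobe differences of -1.46 and -0.84. The lymphocyte marker miR-150 had 0.09 and -0.48. Of 4 striated muscle miRNAs, miR-133a (0.88 and 0.59) and miR-133b (1.09 and 1.10) were detected on every array and lay on the other side. In the same list miR-1 was detected on the lateral arrays only, and miR-206, detected on 3 arrays, had -0.28 under saline and 0.24 under OBP-801. The summed signal of this list was 219 and 176 on the ventral and 588 and 713 on the lateral arrays. The epithelial miR-200 family also lay on the other side from miR-205, with lobe medians of 0.26 under saline and 0.45 under OBP-801. Above 0 were 4 of its 5 members under each agent, and both medians were above 0 under all 9 alternatives. The part of leukocytes, of muscle and of epithelium in the lobe values was not tested. The scanner files give both ventral arrays 1 shared number and both lateral arrays another, and lobe and that number cannot be told apart.

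Under OBP-801 the other miRNAs of the basal list did not share the direction of miR-205, while between the lobes miR-221 and miR-222 did. Both miR-221 and miR-222, which repress the cell cycle inhibitor p27, were lower after OBP-801, by -0.19 and -0.17 in ventral and by -0.19 and -0.20 in lateral prostate. Their signals were 419, 340, 306 and 301 for miR-221 and 198, 176, 162 and 160 for miR-222, on the saline and OBP-801 arrays of ventral and then of lateral prostate. In lateral prostate miR-221 was at 0.03 with print block medians removed, and the other differences of this pair were below 0 under all 9 alternatives. For miR-222, which was measured close to the background, they shrank to -0.007 in ventral prostate with print block medians removed. In lateral prostate they shrank to -0.02 with no normalization between arrays. A further basal miRNA, miR-31, also known from keratinocytes, was above the limit in ventral saline only, with 127. Of the 4 members of this list detected on all arrays, miR-205 was above 0 in each lobe. The other 3, miR-203, miR-221 and miR-222, were below 0 in each lobe. The list counts miR-203, which in skin is known from cells that leave the basal layer. The list's median, which holds miR-205 itself, was -0.16 in ventral and -0.19 in lateral prostate, beside medians of -0.02 and 0.00 over all miRNAs. Each lobe taken alone, 47.3% of all miRNAs in ventral and 47.2% in lateral prostate were above 0. Between lateral and ventral prostate miR-221 had -0.57 under saline and -0.57 under OBP-801, and miR-222 had -0.47 and -0.49. The list's lobe medians, which hold miR-205 itself and miR-203 (0.15 and 0.02), were -0.42 and -0.45, below 0 under all 9 alternatives. In bulk tissue fewer cells of a type and less RNA per cell cannot be told apart.

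The miR-200 family represses ZEB1 and ZEB2 as miR-205 does, and after OBP-801 miR-200b was the 1 member above 0, in ventral prostate, with none above 0 in lateral prostate on the normalized scale. All 5 were detected on every array. In ventral prostate 4 of 5 were lower after OBP-801, with -0.54 for miR-200a, -0.47 for miR-200c, -0.60 for miR-141 and -0.15 for miR-429, while miR-200b had 0.27. Among all miRNAs 137 of 260 were below 0 in this comparison. In lateral prostate miR-200c had -0.18 and miR-141 -0.16, and miR-200a, miR-200b and miR-429 had 0.00, a value that quantile scaling gives to probes of equal rank. The scanned signal of miR-200b fell from 17969 to 16479 in ventral prostate, against its value of 0.27, and was the brightest on the OBP-801 array. In lateral prostate it rose from 24427 to 38562 and was the brightest on both arrays. The family's medians were -0.47 and 0.00. The lateral median was above 0 under 3 of the 9 alternatives and below 0 under 3, so it has no settled sign. The ventral median depended on the scaling, at -0.11 with median centring, -0.14 with spike control scaling and -0.15 with cyclic loess, and was below 0 under all 9 alternatives. Its summed signal above the blank level was 41930 under saline and 34242 under OBP-801 in ventral prostate, and 57649 and 74672 in lateral prostate.

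Of the other epithelial miRNAs, miR-375, of neuroendocrine and luminal cells, had -0.30 in ventral and 0.19 in lateral prostate. In the cluster of miR-183, miR-96 and miR-182 the values were -0.02 and -0.15 for miR-183, -0.34 and -0.03 for miR-96 and -0.21 and -1.33 for miR-182. In each lobe all 3 were below 0, with miR-183 in ventral and miR-96 in lateral prostate close to 0. The signal of miR-183 was 135 and 129 on the ventral and 138 and 140 on the lateral arrays, close to the detection limit. As scanned, miR-183 and miR-96 (597 under saline, 646 under OBP-801) did not fall in lateral prostate. Each lobe taken alone, 137 of 260 miRNAs were below 0 in ventral and 132 of 271 in lateral prostate. Among the keratinocyte-linked miRNAs, miR-24 had 0.00 and 0.10, miR-125b-5p 0.31 and -0.50, and miR-210, which responds to hypoxia, -0.40 and -0.07. The signal of miR-184, of corneal epithelium, was above the limit in lateral saline only, at 134, and that of miR-138 on both lateral arrays, at 141 and 138. The 3 keratinocyte-linked miRNAs detected on all arrays had medians of 0.00 and -0.07.

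**Figure D3:**
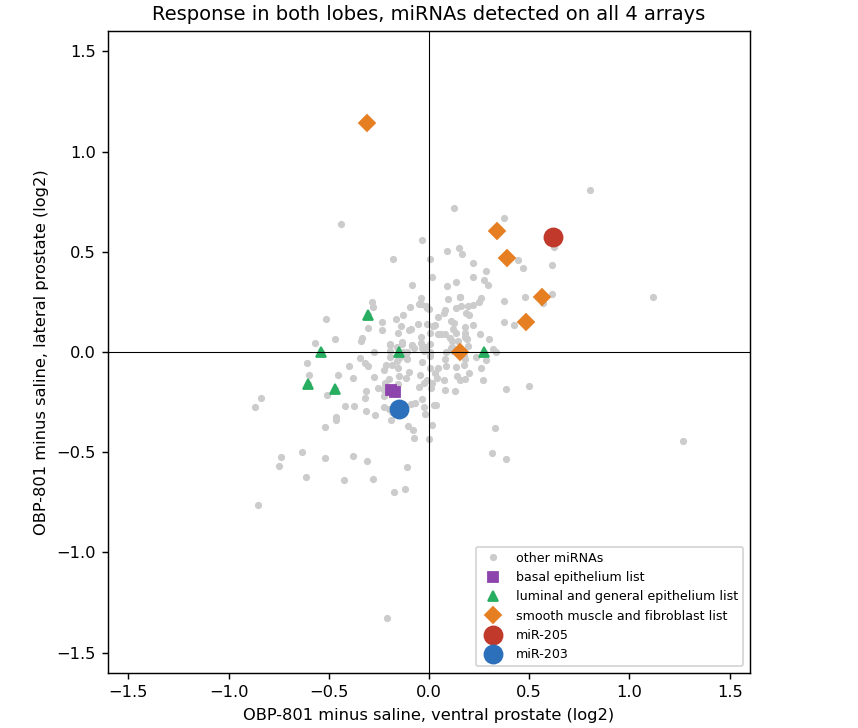
Difference OBP-801 minus saline in ventral (x axis) and lateral prostate (y axis), on the log2 scale, for the 242 miRNAs detected on all 4 arrays, with 3 marker lists in colour. miR-205 lies at 0.62 and 0.58 and the smooth muscle and fibroblast list has medians of 0.36 and 0.37, while miR-203 lies at -0.15 and -0.28 beside miR-221 and miR-222.

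Most miRNAs of the smooth muscle and fibroblast list lay on the same side as miR-205. Of 6 miRNAs of smooth muscle and fibroblasts, all detected on every array, 5 were above 0 in ventral and 5 in lateral prostate, with medians of 0.36 and 0.37, and 2 passed 1.5-fold in lateral and 0 in ventral prostate. Over all miRNAs 47.3% and 47.2% were above 0, and 2.69% and 2.21% were at least 1.5-fold higher. The ventral median was 0.00 in the deposited value table, where that of all miRNAs was -0.47. The list stood above the median of all miRNAs in both lobes under all 9 alternatives. Alternatives that differ only by a constant per array give the same relative value by construction. Their summed signal above the blank level was 7630 in ventral saline and 9164 in ventral OBP-801, and 10514 and 19297 on the lateral arrays in the same order. The endothelial miR-126 had 0.47 and 0.42 and miR-126* 0.11 and 0.07. Leukocyte markers, of which 5 of 6 were on the array and detected everywhere, had medians of -0.15 and -0.18, and the liver marker miR-122 was detected on no array. The part of stromal or other cells in the values of miR-205 was not tested.

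The patterns most like miR-205 were found by the Euclidean distance between normalized log2 values over the 4 arrays, after each miRNA's own mean was removed. Among 241 other miRNAs the nearest was miR-665, at a distance of 0.15, with OBP-801 differences of 0.62 in ventral and 0.44 in lateral prostate. Next came miR-652* (0.63 and 0.52), miR-3584-5p (0.80 and 0.81), miR-199a-3p (0.57 and 0.27) and miR-214 (0.34 and 0.60), at distances of 0.25 to 0.33. Of these, miR-199a-3p and miR-214 belong to the smooth muscle and fibroblast list, which holds 6 of the 242 miRNAs detected on all arrays. The neighbours were picked by the same values on the 4 arrays, so their differences and list membership are not separate evidence. The nearest to miR-203 were miR-664-2*, miR-98, miR-181b, miR-423 and miR-103, at distances of 0.081 to 0.10, with ventral differences from -0.23 to -0.09 and lateral ones from -0.34 to -0.16. Small distances are common there, because most miRNAs differ little between arrays. The 2 members were 0.95 apart, and 180 of the other miRNAs were nearer to miR-205 than miR-203 was.

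The direction of both members under OBP-801 was the same in both lobes under all 9 alternatives of background correction, scaling and source of values. For miR-205 the ventral difference ran from 0.20 to 0.68 and the lateral one from 0.36 to 0.86. The lowest ventral value, from the deposited value table, came with a median of -0.47 over all miRNAs, so that relative to this median miR-205 stood 0.67 higher. Over the alternatives 3 to 11 miRNAs had a larger ventral difference than miR-205 and 5 to 23 a larger lateral one. A difference of at least 1.5-fold was reached in ventral prostate under 3 of 9 alternatives and in lateral prostate under 6 of 9, so the side of 1.5-fold on which a lobe fell depended on the processing. For miR-203 the ventral difference ran from -0.63 to -0.10 and the lateral one from -0.44 to -0.10.

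**Figure D4:**
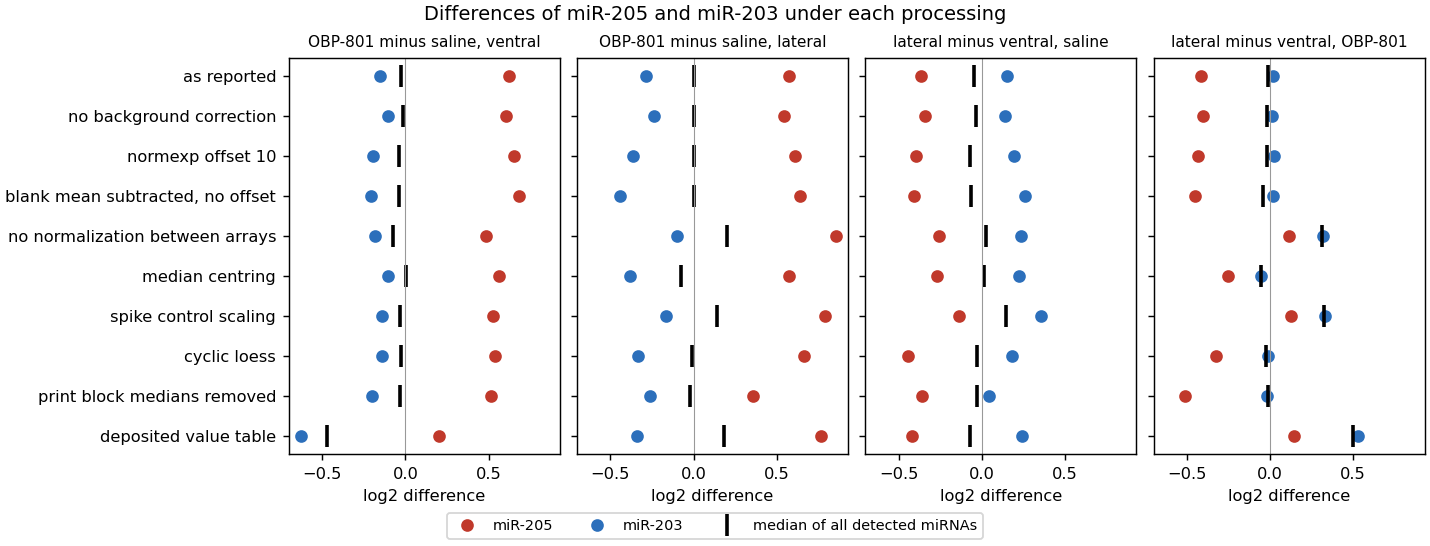
Log2 difference (x axis) of miR-205 (red) and miR-203 (blue) in the 4 comparisons under the reported processing and 9 alternatives (rows), with the median of the miRNAs detected on all arrays as a black bar. miR-205 is right of the median in both OBP-801 comparisons under each processing and left of it in both lobe comparisons.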

How the data were processed

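Total RNA was labelled with Hy5 and read on 1-colour miRNA arrays, per the labels' protocols. The scanner files deposited by the authors give the median intensity of each spot and of its local background as scanned, per the file headers, neither corrected nor normalized. The scanner software and the steps behind the authors' processed values are not given in the labels. Those values, a linear intensity present for 309 to 369 of the 679 probes, kept the rank order of the scanned signals (Spearman's rho of 1 over probes on each array) and had a median of 25.0 to 25.1 on each array, so that each appears scaled to its own median. They served as an alternative, as log2. Intensities were corrected with limma's normexp (offset 50, limma 3.58.1, R 4.3.3), control spots were left out, 1 spot marked as faulty was set to missing, and arrays were brought to common quantiles and log2-transformed, which understates differences of dim probes. Differences of single arrays have no test. An additive limma fit (lobe and agent, eBayes, 2.54 prior degrees of freedom) used the 242 miRNAs detected on all arrays, was tested on simulated data, and was adjusted over all of them. Alternatives covered background, scaling, filters, print blocks and moderation. The miRNAs named were both members, other arms of their loci, the listed epithelial miRNAs detected on at least 1 array and the 5 nearest patterns of each member. Single markers of muscle, leukocytes, endothelium and liver come from the marker lists and were chosen after their values were seen. The members and lists were chosen with earlier results of these data known. Hairpins were folded with RNAfold (ViennaRNA 2.7.2). The number of arrays, 4, limits the precision.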

Additional observations from a re-analysis of the deposited data

How the results depend on the processing

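No group has a second array, so no array could be left out, no replicate spots existed to take a median of, and no value has a replicate error. No paired analysis was possible because the groups share fewer than 2 replicate numbers. A value of 2 arrays was taken as moved when it shifted by more than the spread of all miRNAs in that comparison. The authors' deposited value table gave ventral OBP-801 differences of 0.20 for miR-205 and -0.63 for miR-203 around a median of -0.47, lobe differences under OBP-801 of 0.14 and 0.53 around 0.50, and lateral minus ventral responses of 0.57 and 0.29 around 0.60. Without normalization the lateral OBP-801 difference of miR-205 was 0.86, its lobe difference under OBP-801 0.11 and that of miR-203 0.32, and the lateral minus ventral response of miR-205 was 0.37. With spike control scaling the last 3 were 0.13, 0.33 and 0.27. Both scalings shifted the median of all miRNAs too, to 0.31 and 0.33 between lobes under OBP-801. In the additive fit the agent term of miR-205 had an adjusted p under 0.05 with 4 of 13 alternatives (limma). Its log2 difference there was 0.58 with no background correction, 0.63 with normexp offset 10, 0.66 with spike control scaling and 0.60 with cyclic loess. The number of miRNAs that passed for OBP-801 was 0 as reported, with 40 at an unadjusted p under 0.05, and was 9, 19, 18 and 33 in those 4, 3 with the blank mean subtracted and 4 with no normalization. For the lobe it was 0 as reported and 20 with no background correction, 29 with normexp offset 10, 16 with the blank mean subtracted, 28 with no normalization, 19 with median centring, 59 with spike control scaling, 31 with cyclic loess, 9 with print block medians removed, 2 in the deposited value table, 2 with no filter and 3 with an intensity trend. The cause was not tested. With the limit of 4 times the detection limit on 1 array, miR-203 was not among the 80 miRNAs kept and has no value. The number of all miRNAs at least 1.5-fold higher after OBP-801 ran from 4 to 20 in ventral (7 as reported) and from 5 to 42 in lateral prostate (6), and lower from 5 to 104 (10) and from 1 to 36 (7). Between lobes it ran from 6 to 28 higher (9) and 3 to 34 lower (5) under saline, and from 5 to 109 (11) and 2 to 26 (7) under OBP-801. Signal over background limits miR-203, which lay within 1.97 times the detection limit.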
